A study of Mus musculus with 2 samples.

Results

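The 36 genes described here are imprinted genes of the mouse. They were chosen by symbol and not by a limit on any measured value, though with earlier results of these data known. Of them, 35 were found among the 43346 mouse genes of the deposited tables. Peg13 did not match an identifier of the annotation used and is not analysed here. The tissue was whole adrenal gland from adult C57BL/6J mice at 8 weeks of age, taken from littermates of both sexes, with no treatment, transgene or second genotype. Poly(A) RNA longer than 200 nt and depleted of ribosomal RNA was sequenced as stranded paired reads of 76 nt in 2 libraries, which form 1 group. The labels call them biological replicates but give both 1 donor identifier, and nothing in the labels says which animals or pools each came from. The spread between the libraries may therefore be partly technical, and with 1 library on each side no p-value can be given.

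An imprinted gene is expressed mainly from 1 parental copy, because a mark placed in the egg or the sperm, usually DNA methylation at a control region, persists on that copy in the embryo. Imprinted genes lie in clusters that often pair a long noncoding RNA made from one parental copy with coding genes made from the other, and many of them act in fetal growth, placenta and brain. Many of the growth-regulating members are known to be turned down in most organs after birth. C57BL/6J is an inbred strain, so the parental copies cannot be told apart in these reads. The parent of origin named below for each gene is background knowledge and was not measured.

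The libraries held 48059863 and 53294872 expected counts in replicates 1 and 2, of which 377984 and 374429 were on the members. All 8 markers of adrenal cortex and all 8 of chromaffin cells were detected at 1 TPM or more (transcripts relative to a fixed total, a level per unit length) in both libraries. The libraries did not hold the same mix of tissue. Cortex markers summed to 25049 TPM in replicate 1 and 33475 in replicate 2, and 8 of 8 were lower in replicate 1. Chromaffin markers summed to 3968 and 3659 TPM, with 5 of 8 higher in replicate 1, 1 of them at least 2-fold, and 3 lower. White adipose markers summed to 14480 and 6474 TPM, with 7 of 8 higher in replicate 1, and brown adipose markers to 1282 and 671 TPM, with 6 of 6 higher there. Sympathetic neuron markers summed to 31.8 and 16.2 TPM, with 7 of 7 tested higher in replicate 1. Liver markers were low in both but higher in replicate 2, at 6.44 and 38.2 TPM, with Ttr, Apoh and Fgb at 0 counts in replicate 1. The 4 Y-linked genes examined had counts only in replicate 1, where Kdm5d had 221 counts against 0 in replicate 2. The other sex-linked gene examined, Xist, was higher in replicate 2, with a log2 ratio of -1.15. The libraries thus did not match in sex-linked RNA. In bulk tissue, fewer cells of a type and less RNA per cell cannot be told apart, and this holds for every level below.

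Of the 35 members, 28 were detected at 1 TPM or more in both libraries, which is 80% of them, beside 28.7% of all genes in the tables. The latter take in every annotated gene type, and only 15814 of the 43346 had a summed count of at least 20, against 33 members. The shares therefore compare unlike sets. Their levels ran from 2552 TPM for Meg3 to 0. In both libraries 9 members reached 100 TPM: the noncoding RNAs Meg3 and Rian, and the coding genes Dlk1, Cdkn1c, H13, Mest, Nnat, Peg10 and Ndn. For 6 more, Trappc9, Ube3a, Mirg, Grb10, Snrpn and Inpp5f, the lower of the values was between 10 and 100 TPM. Another 13 had a lower value between 1 and 10 TPM, and 7 fell below 1 TPM in at least 1 library. Together the members held 0.629% of all TPM outside spike-ins in replicate 1 and 0.543% in replicate 2 (mean 0.586% ± 0.0609, SD, n = 2). Meg3 and Dlk1 alone made up 64.0% and 60.6% of that share. The median level of the detected members was 24.1 TPM, beside 15.0 TPM for all 12445 detected genes. Among the 34 pairs of neighbours in the order of level, 13 did not overlap in their library values, so the order within each step of the plot of levels is mostly not resolved.

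**Figure D1:**
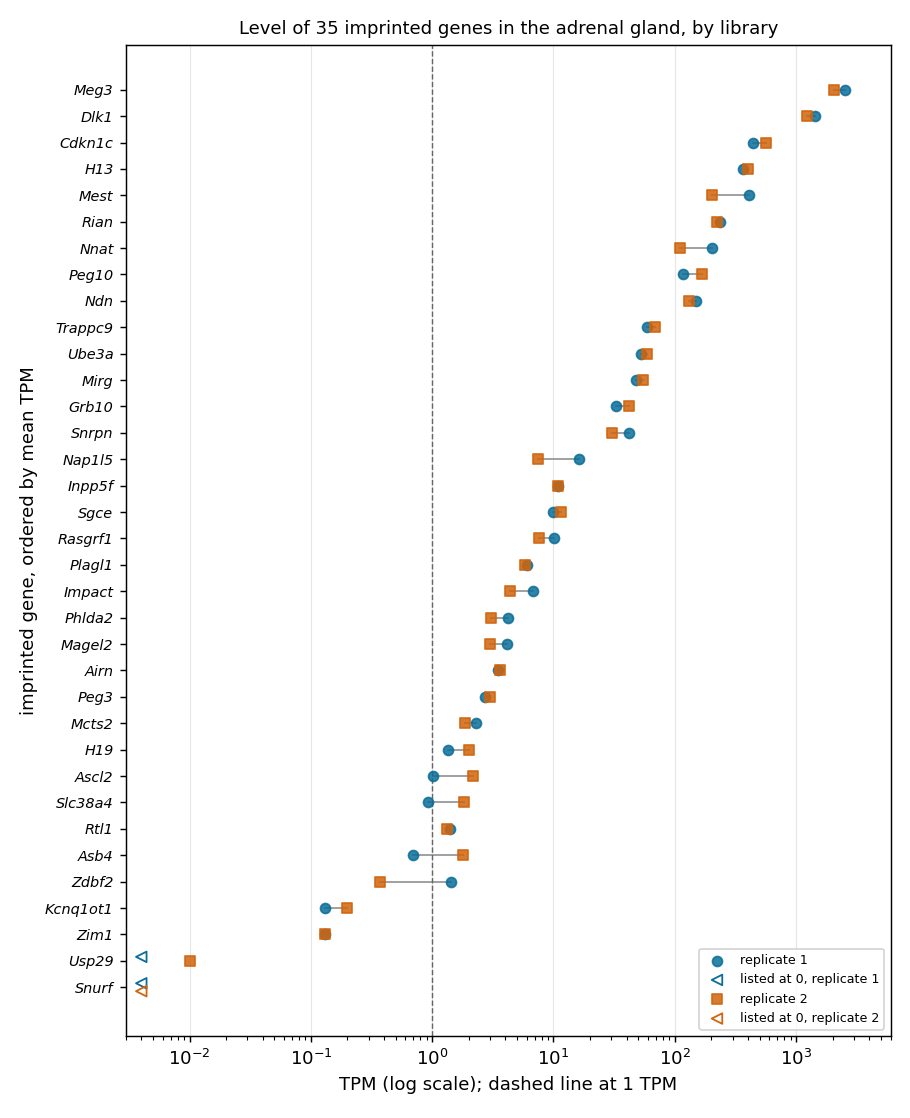
Level of each of 35 imprinted genes in TPM on a log axis, ordered by the mean, with a circle for replicate 1, a square for replicate 2 and open triangles for values listed at 0; the dashed line marks 1 TPM. Meg3 and Dlk1 stand above the other members in both libraries, and Usp29 and Snurf, neither readable as absence, are at or next to 0.

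The domain that holds Dlk1 and Meg3 on chromosome 12 gave the highest levels. Its coding genes Dlk1 and Rtl1 are known to be made from the paternal copy, and Meg3, Rian and Mirg, noncoding RNAs read in the same direction one after the other, from the maternal copy. Meg3 (ENSMUSG00000021268.13, chr12:109541001-109571726 in GRCm38) reached 2552 TPM in the library of replicate 1 and 2035 in that of replicate 2 (mean 2294 ± 366, SD, n = 2), rank 53 among all genes. Both libraries placed it above every other member. Dlk1 (ENSMUSG00000040856.13, chr12:109452823-109463336), a membrane protein related to Notch ligands that holds back fat cell formation, stood at 1430.1 and 1227 TPM (mean 1329 ± 143, SD, n = 2), rank 92. Meg3 therefore exceeded Dlk1 by 1.78 times and 1.66 times in TPM in replicates 1 and 2. Rian, which hosts small nucleolar RNAs, had 236 and 221 TPM. Mirg, a host of microRNAs farther along, had 47.7 and 54.4 TPM. The levels of the noncoding RNAs thus stepped down from Meg3 to Rian to Mirg in both libraries, with Meg3 over Rian at 10.8 and 9.21 times and Rian over Mirg at 4.95 and 4.07 times. Rtl1, a gene derived from a retrotransposon that is needed in placenta, was far below its paternal neighbour, at 1.39 and 1.33 TPM, so that Dlk1 exceeded it by 1029 and 923 times. Dio3, the deiodinase at the far end of the domain, had 6.01 and 2.59 TPM.

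The transcripts of Meg3 show how far a level depends on length. The transcript of 14548 nt held 50.5% and 51.5% of the expected counts of the gene, but only 7.22% and 7.41% of its TPM. The transcript of 1896 nt led by TPM with 36.6% and 37.6%, beside 30.3% and 31.1% of the counts. Shorter transcripts of 706, 695 and 1498 nt held 17.0%, 16.0% and 13.7% of the TPM in replicate 1 and 18.2%, 16.6% and 9.87% in replicate 2. These shares differed little between the libraries, apart from the transcript of 1498 nt, which had 15899 counts in replicate 1 and 9789 in replicate 2. For Rian the transcript of 553 nt led by TPM, with 46.6% and 39.5%, and that of 2355 nt led by counts, with 33.03% and 36.5%.

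**Figure D2:**
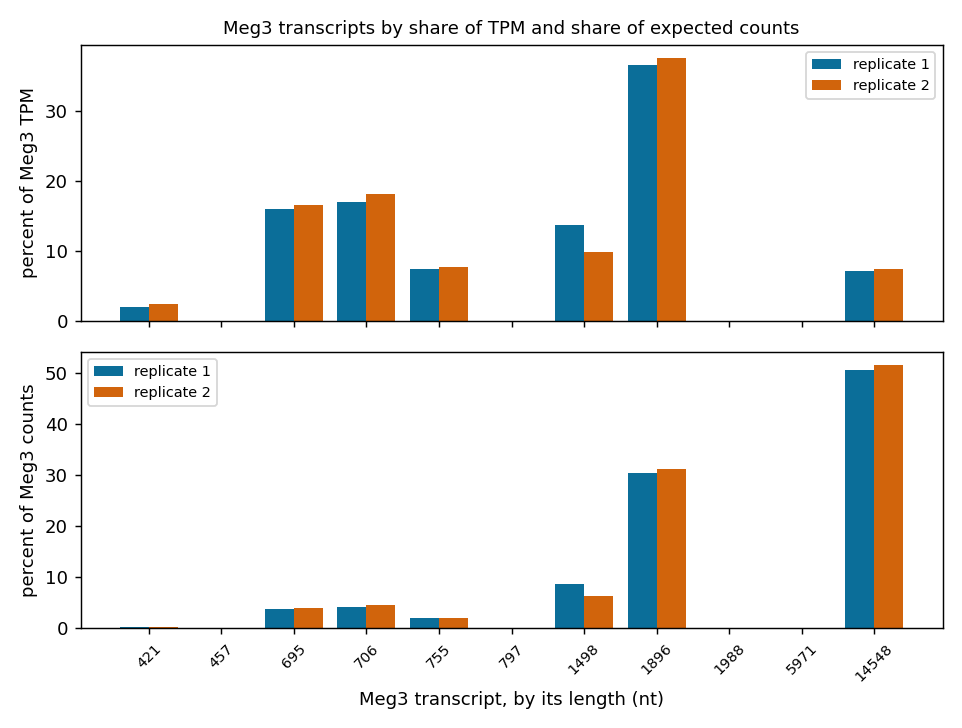
Share of each of the 11 annotated Meg3 transcripts, by its length in nt, in the TPM of the gene (upper panel, percent) and in its expected counts (lower panel, percent), with a bar for each library. The transcript of 14548 nt holds about 7% of the TPM and over 50% of the counts in both libraries.

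RefSeq places a start of Meg3 just before the gene model used here. The 250 bases before that start (chr12:109540746-109540995, plus strand, GRCm38.p6) are shown because they hold 1 copy of the hexamer TGCCGC, on the reverse strand. This is the core of the site bound, when methylated, by ZFP57, a zinc finger protein that protects imprints in the embryo, and the capitals mark that copy.
Meg3: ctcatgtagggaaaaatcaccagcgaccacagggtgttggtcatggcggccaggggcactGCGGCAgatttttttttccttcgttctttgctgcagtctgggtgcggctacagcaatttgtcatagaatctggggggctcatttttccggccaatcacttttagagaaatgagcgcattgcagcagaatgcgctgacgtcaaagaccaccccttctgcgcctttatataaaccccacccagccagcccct

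The noncoding RNAs of this domain carry microRNA hairpins. By RefSeq, 14 hairpins lie within Mirg on its strand, 4 of them within an exon, 3 lie within Rian and 1 within an exon of Meg3. Rtl1 has 6 hairpins on the opposite strand, all within its exon, and 1 on its own strand. MicroRNAs themselves were not measured, because RNA below 200 nt was left out. Those shown are the pair in Mirg that share a seed, the one in an exon of Meg3, and the pair that overlap on opposite strands within Rtl1, with the seed (bases 2 to 8) in capitals.
mmu-miR-453: aGGUUGCCucauagugagcuugca
mmu-miR-496a-5p: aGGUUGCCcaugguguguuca
mmu-miR-770-5p: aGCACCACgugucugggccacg
mmu-miR-136-5p: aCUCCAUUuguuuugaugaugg
mmu-miR-3071-3p: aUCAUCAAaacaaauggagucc
The seed GGUUGCC of miR-453 and miR-496a-5p was the only one that 2 mature microRNAs within members shared. Because transcripts of both strands cover Rtl1 and no source used here gives the strand setting of the counting, its 297 and 306 counts cannot be told apart from reads of the opposite strand.

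In the Kcnq1 domain on chromosome 7, the growth restrainer Cdkn1c was the third highest member. Cdkn1c encodes the cyclin-dependent kinase inhibitor p57, is made from the maternal copy, and in people is linked to a syndrome with small adrenal glands. It had 444 and 563 TPM in replicates 1 and 2 (mean 503.8 ± 84.0, SD, n = 2), higher in replicate 2. Phlda2, another maternally expressed growth restrainer best known from placenta, lies 40494 bases away and had 4.25 and 3.07 TPM, so that Cdkn1c exceeded it by 105 and 183 times. The transcription factor gene Ascl2, also known from placenta, stood at the detection limit with 1.02 and 2.16 TPM. Kcnq1ot1, the paternal noncoding RNA that silences the domain in cis, was listed at 0.13 and 0.20 TPM, from 378 and 636 counts spread over a transcript of 84395 nt. It lies antisense to Kcnq1, which had 14.2 and 17.0 TPM, but 36.3 and 26.6 TPM by the authors' posterior mean, and reads of the opposite strands could not be separated here. H19, the maternal noncoding RNA of the neighbouring domain, was barely detected, with 54 and 90 counts or 1.34 and 2.01 TPM. Its reciprocally imprinted partner Igf2, a fetal growth factor, had 32.2 and 22.2 TPM. The hairpin of miR-675 lies in an exon of H19, and its mature form from the 5' arm, shown with the seed in capitals, shares that seed with no other mature microRNA within the members.
mmu-miR-675-5p: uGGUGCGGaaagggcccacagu

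The Snrpn domain on chromosome 7, which in people corresponds to the Prader-Willi and Angelman region, held genes of high, moderate and low level. Ndn (necdin, a growth-suppressing protein of the MAGE family in neurons) led with 149 and 132 TPM (mean 140.4 ± 12.2, SD, n = 2). Magel2, another MAGE gene 26747 bases away, had 4.11 and 3.02 TPM, so Ndn exceeded it by 36.3 and 43.6 times. Snrpn, which encodes the spliceosomal protein SmN, had 42.3 and 30.3 TPM, while its more widely expressed relative Snrpb had 352 and 444 TPM. Ube3a, a ubiquitin ligase that is imprinted in neurons and known to be made from both copies elsewhere, had 52.5 and 58.9 TPM. Ube3a and Snrpn were thus within a factor of 2 of each other in both libraries.

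Snurf was listed at 0 counts in both libraries, but this value cannot be read as absence. Its only transcript has 216 nt and lies wholly within the 1932 nt Snrpn transcript, and all of its 76-base windows occur there too (100%). The effective length used in the deposited table was 21.2 nt in replicate 1 and 29.99 nt in replicate 2. The authors' upper bounds of TPM for Snurf were 4.10 and 2.81. The Snrpn transcript that starts beside Snurf held 98.7% and 98.2% of the Snrpn TPM, and the one with the upstream start 1.30% and 1.78%.

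At Peg10 and Sgce on chromosome 6, neighbours that point away from each other with 98 bases between them, levels differed by an order of magnitude. Peg10, derived from a retrotransposon and essential in placenta, had 117 and 166 TPM, higher in replicate 2. Sgce, the epsilon-sarcoglycan gene, had 9.87 and 11.6 TPM, so Peg10 exceeded it by 11.8 and 14.3 times. Asb4, a maternally expressed ubiquitin ligase adaptor of the same cluster, had 74 and 207 counts, or 0.69 and 1.80 TPM. Of the Peg10 counts, the transcript of 6667 nt held 54.3% and 64.8%, and that of 5191 nt 45.7% and 35.2%.

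The transcripts measured in the Peg3 domain were low. Peg3, a zinc finger gene made from the paternal copy, had 778 and 912 counts, or 2.73 and 2.99 TPM over a long messenger. Zim1, a maternally expressed zinc finger gene, had 15 and 16 counts. The only Usp29 transcript in the tables, of 2610 nt at chr7:6961160-6963769, had 0 counts in replicate 1 and 1 in replicate 2, where a count of 0 allows up to 3. It does not begin at the annotated Usp29 start beside Peg3, so the output of that start was not measured.

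Several members lie inside a host gene, some of them as retrotransposed copies of genes on the X chromosome, and host and insert could differ widely in level. Mcts2, a copy of the X-linked Mcts1, lies in H13, the gene of signal peptide peptidase. H13 had 365 and 399 TPM (mean 381.6 ± 24, SD, n = 2) and Mcts2 had 2.31 and 1.88 TPM, so the host exceeded the insert by 158 and 212 times. Mcts1 itself had 2.54 and 3.04 TPM. H13 is known for ending early on the copy that transcribes Mcts2 and late on the other. The 3 coding transcripts that end past Mcts2 held 352 and 389 TPM, or 96.5% and 97.5% of H13. The 1 coding transcript that ends before it held 7.20 and 3.41 TPM, or 1.97% and 0.86%, from 217 and 111 counts. A transcript of 2769 nt with a retained intron also ends before Mcts2. It had 460 and 600 counts, or 5.13 and 6.25 TPM.

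Nnat (neuronatin, a small membrane protein of the endoplasmic reticulum) lies within Blcap and had 204 and 109.7 TPM (mean 156.9 ± 66.8, SD, n = 2), higher in replicate 1. Its level was 4.75 and 2.31 times the level of Blcap, which had 43.0 and 47.5 TPM. Nap1l5, a nucleosome assembly protein gene inside Herc3, had 965 and 476 counts, or 16.4 and 7.51 TPM, also higher in replicate 1. Herc3 had 17.5 and 11.3 TPM. Inpp5f, a phosphoinositide phosphatase gene, had 10.8 TPM in each library. The paternal form known in brain starts inside Inpp5f, but transcripts from the first start held 97.3% and 98.4% of the TPM, and the coding transcripts with an internal start 0.00 and 0.02 TPM. Most of the TPM from the first start was on a transcript of 1906 nt that is not annotated as coding, with 75.9% and 72.4% of the gene's TPM. The full coding transcript of 4734 nt had 2.32 and 2.81 TPM, and 41.4% and 47.8% of the counts.

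Mest, a gene of the hydrolase family made from the paternal copy, illustrates a level that moves with the transcript assigned. It had 5263 and 4204 counts, which is 1.39 times on scaled counts, but 407 and 204.5 TPM, which is 1.99 times. The average length assigned to the gene was 568 nt in replicate 1 and 740 nt in replicate 2. A transcript of 417 nt from the main start had 2270 counts in replicate 1 and 709 in replicate 2, and held 72.6% and 40.5% of the TPM. One of 836 nt had 2258 and 2698 counts. The full coding transcript of 2554 nt had 700 and 763 counts. The 5 transcripts with starts more than 100 bases upstream had 0 counts in both libraries, which allows up to 3. This covers placed transcripts only, since the one of 836 nt, with 42.9% and 64.2% of the counts, did not match GENCODE M21 and its start is not known here. The 250 bases before the main start (chr6:30737800-30738049, plus strand, GRCm38.p6) hold 2 copies of the ZFP57 core on the reverse strand, in capitals.
Mest: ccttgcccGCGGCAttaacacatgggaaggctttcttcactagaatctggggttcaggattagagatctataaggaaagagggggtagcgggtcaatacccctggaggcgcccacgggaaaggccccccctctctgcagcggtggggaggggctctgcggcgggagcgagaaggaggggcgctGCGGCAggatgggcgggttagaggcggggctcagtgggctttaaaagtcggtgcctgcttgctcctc

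Members outside these clusters ranged from moderate to near 0. Trappc9, a vesicle transport gene imprinted in brain, had 58.9 and 68.7 TPM. Grb10, an adaptor that dampens insulin signalling, had 32.6 and 41.9 TPM, and its transcript of 5061 nt led with 64.1% and 75.99%. That transcript comes from the upstream start, the one known to be maternal in most tissues outside the nervous system. Rasgrf1, an exchange factor for Ras, had 10.2 and 7.57 TPM, Plagl1, a zinc finger gene that restrains growth, 6.04 and 5.86 TPM, and Impact, a regulator of the GCN2 kinase, 6.76 and 4.35 TPM. Slc38a4, an amino acid transporter, had 102 and 131 counts. Airn, the noncoding RNA that silences Igf2r on the paternal copy, had 3.48 and 3.61 TPM from 121 and 139 counts. Part of it overlaps Igf2r, which lies on the other strand and had 22.0 and 23.1 TPM. Reads within that overlap could not be separated. The leading Airn transcript, of 1375 nt at chr17:12815931-12830335, lies outside Igf2r and held 91 and 103 of the counts, or 75.2% and 74.1%. It does not begin at the annotated Airn start within Igf2r (chr17:12741311), so most of the counts were not assigned to transcripts from that start. Of those that begin there or close by, the transcript of 842 nt had 16 and 14 counts and that of 1113 nt 12 and 21. Zdbf2, a zinc finger gene, had 151 and 136 counts but 1.43 and 0.37 TPM. The difference in TPM came with 16 against 1 counts on a transcript of 611 nt, while the main transcript of 12112 nt had 135 counts in each library.

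Between the libraries, 33 members had a summed count of at least 20 and were compared on counts scaled by TMM, as log2 of replicate 1 over replicate 2. Of these, 3 were at least 2-fold apart, or 9.09%, beside 7.61% of the 15814 genes compared, a share near that background. Nap1l5 was higher in replicate 1, by 1.17 on the log2 scale (95% interval 1.01 to 1.33), where 4.76% of all genes were at least 2-fold higher. With spike-in scaling it was 0.74, below 2-fold. Asb4 at -1.33 (-1.74 to -0.94) and Ascl2 at -1.03 (-1.55 to -0.55) were higher in replicate 2, where 2.85% of all genes were. The intervals are exact Clopper-Pearson intervals and cover counting error only. Nnat at 0.98 (0.92 to 1.04) was just inside the limit. For 27 members the libraries were within 1.5-fold of each other, and 80.4% of all genes were. The intervals of 22 members excluded equality, 13 of them on the side of replicate 1 and 9 on the side of replicate 2, beside 61.3% of all genes. The median ratio of the members was 0.05, with 18 above 0 and 15 below, beside -0.0006 for all genes, and the median size was 0.33 beside 0.26.

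Scaling to the spike-in RNAs shifts the median of all genes from -0.0006 to -0.43, and under it Meg3, Dlk1, Ndn, Rian, H13, Rasgrf1, Plagl1, Mcts2, Zdbf2, Rtl1 and Zim1 change from higher in replicate 1 to lower. The other 22 members kept 1 direction under TMM, total count, DESeq2 and spike-in scaling. Nap1l5 and Nnat were higher in the library with more adipose marker RNA (14480 against 6474 TPM, 7 of 8 white adipose markers higher) and more sympathetic neuron marker RNA (31.8 against 16.2 TPM, 7 of 7 tested higher). They are the largest of the 13 members whose interval lay on that side, which also include Impact at 0.69, Snrpn at 0.53, Magel2 at 0.50 and Mest at 0.48. Asb4, Ascl2, Cdkn1c, Peg10 and Grb10, named from the 9 members with an interval on the other side, were higher in replicate 2. That library had more cortex marker RNA (33475 against 25049 TPM, 8 of 8 higher) and more liver marker RNA (38.2 against 6.44 TPM, 7 of 7 tested higher). Replicate 1 also had more pancreas acinar marker RNA (54.3 against 2.55 TPM, 2 of 2 tested higher), and 5 of 5 endothelial markers were higher there. Of 8 capsule and stroma markers 7 were higher there and 1 lower, though their TPM summed to 300 and 304 in replicates 1 and 2. All 5 sex-linked genes examined were at least 2-fold apart, 4 higher in replicate 1 and 1 in replicate 2. The part of these differences in the ratios of the members was not tested.

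**Figure D3:**
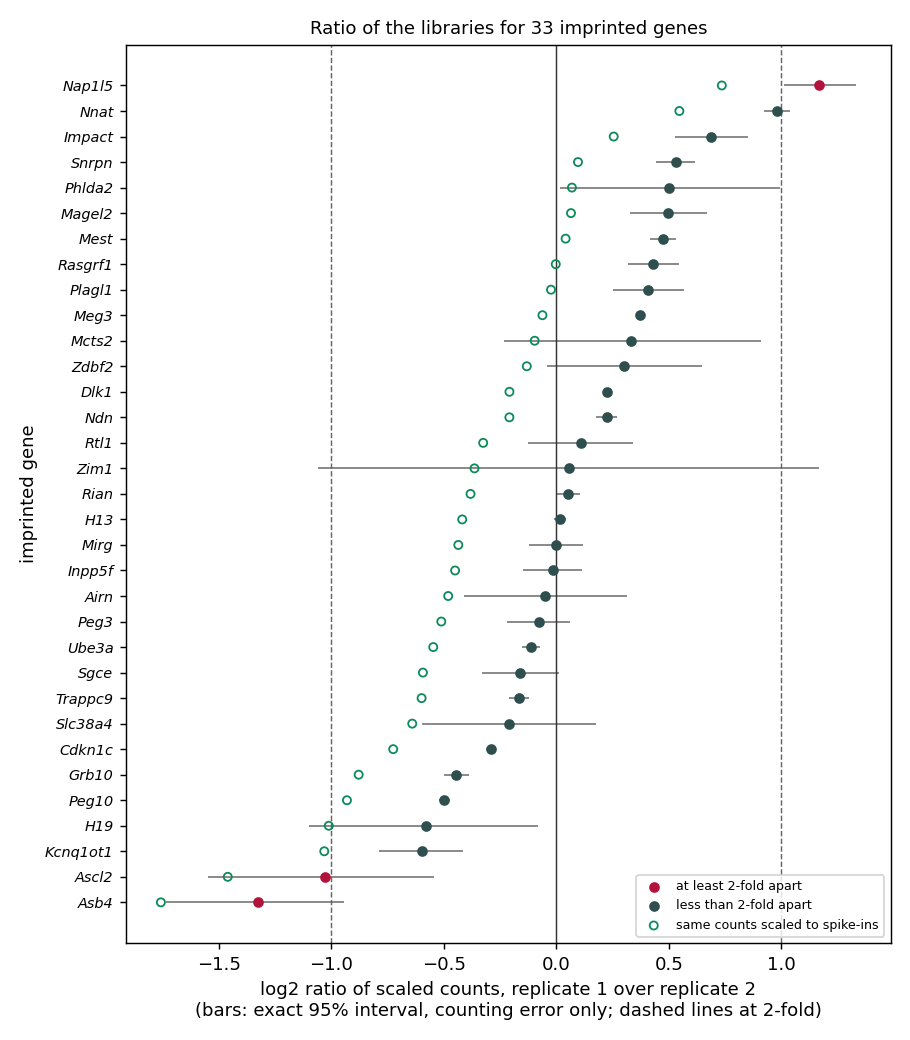
Log2 ratio of replicate 1 over replicate 2 for the 33 members compared, as filled points for TMM-scaled counts with the exact 95% interval for counting error and as open circles for the same counts scaled to spike-ins. Nap1l5, Ascl2 and Asb4 lie beyond the dashed lines at 2-fold, and spike-in scaling moves every open circle to the left of its point.

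Grouped by the parental copy known to be active, the sets overlapped widely. Of 22 paternally expressed members in the tables, 17 were detected and 7 reached 10 TPM in both libraries. The 7 include Inpp5f, whose level came almost wholly from the first start and not from the paternal form. Of 13 maternally expressed members, 11 were detected and 8 reached 10 TPM. The median ratio was 0.26 for 20 paternally expressed members, with 13 above 0 and 7 below, and -0.11 for 13 maternally expressed members, with 5 above and 8 below. Under spike-in scaling the medians were -0.17 and -0.55, so the first changed sign. The groups were formed from background knowledge and include Ube3a and Trappc9, which are imprinted only in neurons or brain.

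Among the 20 detected members with more than 1 annotated transcript, 16 had the same leading transcript by TPM in both libraries. In 3, Ascl2, Snrpn and Peg3, the leader held more than 90% of the TPM in both. For Ascl2 this does not hold by the posterior mean, which gave its transcripts of 1605 and 1612 nt 0.53 and 0.52 TPM in replicate 1 and 1.12 and 1.05 TPM in replicate 2. The leader differed between the libraries in 4: Mest, H13, Peg10 and Plagl1. H13 and Peg10 kept 1 leader by expected counts, and Plagl1 by the authors' posterior mean of TPM, by which 17 had the same leader. Mest changed its leader by each of these measures. In H13, transcripts of 1743 and 1090 nt changed places, with 55.2% and 33.04% in replicate 1 and 39.6% and 49.7% in replicate 2. In Plagl1, which has 25 annotated transcripts, one of 3897 nt held 48.8% and 17.9%. Cdkn1c kept its leader, of 1893 nt, at 75.5% and 80.4%, and Dlk1 one of 1703 nt at 65.5% and 70.8%. Shares among overlapping transcripts are estimates of how reads were split, so a change of leader describes the deposited estimate.

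**Figure D4:**
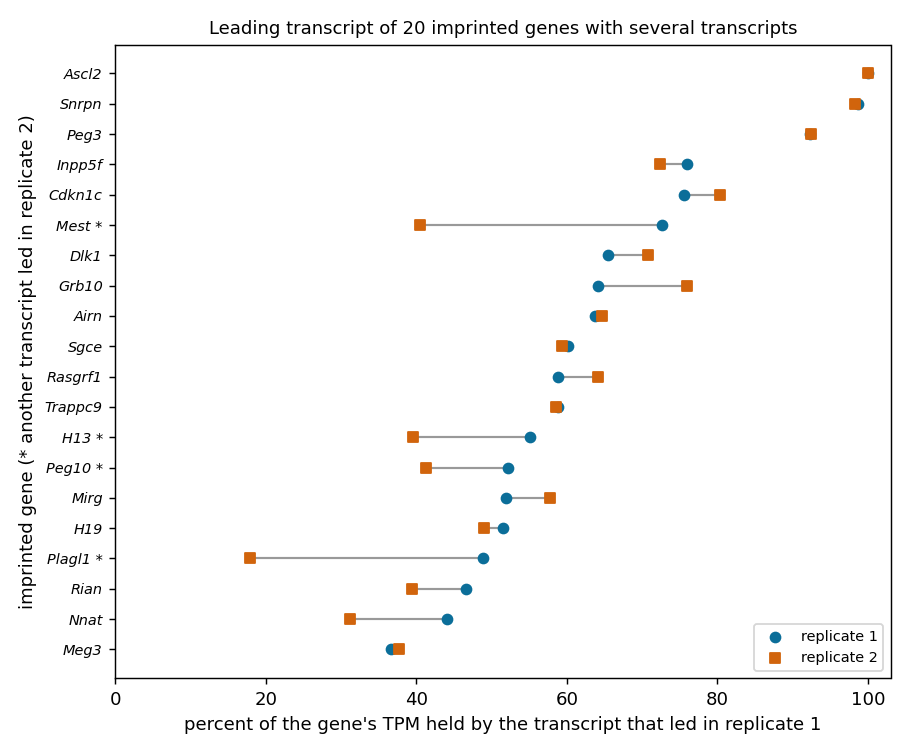
Percent of the TPM of the gene held by the transcript that led in replicate 1, for 20 detected members with several transcripts, with a circle for replicate 1 and a square for replicate 2. Mest and Plagl1 show the widest gaps, and Ascl2, Snrpn and Peg3 lie above 90% in both libraries by TPM, which for Ascl2 does not hold by the posterior mean.

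RefSeq gave 39 promoter windows, from 250 bases before to 50 after a start, for 28 of the members. The hexamer TGCCGC, sought on both strands, was present in 12 of these windows, or 30.8%, beside 11.6% of all 32851 windows of the table. Counted by gene, 11 of 28 members (39.3%) had it in a window, beside 13.1% of 27025 genes. Within the 250 bases before the start alone the shares were 20.5% and 8.68%. The member windows had a median of 11 CG dinucleotides, beside 7 over all windows, and the part of CG content in these shares was not tested. Some windows overlap: those of Snrpn and Snurf are the same, and 2 of Mest nearly so. The genes with the motif were Meg3, Mest, Nap1l5, Mcts2, Plagl1, Nnat, Grb10, Snrpn, Snurf, Zdbf2 and Zim1, whose levels run from that of Meg3 to 0.13 TPM for Zim1, leaving out Snurf, which could not be read. The 250 bases before Nap1l5 (chr6:58907127-58907376, minus strand, GRCm38.p6), the member farthest above 0 in the ratio of the libraries, are shown with the motif in capitals. A match is a description of the letters and not of binding, and no methylation was measured.
Nap1l5: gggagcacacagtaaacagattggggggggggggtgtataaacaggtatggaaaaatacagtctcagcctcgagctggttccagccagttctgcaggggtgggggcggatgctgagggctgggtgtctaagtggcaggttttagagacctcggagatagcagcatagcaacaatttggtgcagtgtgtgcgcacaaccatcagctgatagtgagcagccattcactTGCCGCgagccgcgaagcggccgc

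For the wider set of 53 other imprinted genes and close neighbours in the tables, 36 were detected. Its highest were Cd81, a tetraspanin beside the Kcnq1 domain, at 3036 and 3175 TPM, and Gnas, the stimulatory G protein subunit that carries the signal of the corticotropin receptor, at 1348 and 1581 TPM. The next were Dhcr7, an enzyme of cholesterol synthesis, at 844 and 1135 TPM, Th, the first enzyme of catecholamine synthesis, at 491 and 444 TPM, and Smoc1 at 231 and 303 TPM. Of 44 compared between the libraries, 3 were at least 2-fold apart, a share below the 7.61% of all genes. They were Dio3, Adam23 (8.85 and 4.11 TPM) and Mkrn3 (1.31 and 0.67 TPM). All 3 were higher in replicate 1, where 4.76% of all genes were, so the share in that direction alone was above that of all genes. In the direction of replicate 2 the set had 0, beside 2.85% of all genes.

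Of 25 genes for factors that set or keep imprints, 19 were detected. The abundant ones were Ehmt2, a histone methyltransferase, at 389 and 449 TPM, and Trim28, the corepressor recruited by ZFP57, at 173 and 258 TPM. Dnmt1, which copies DNA methylation when cells divide, had 20.3 and 23.2 TPM, and Dnmt3l, a cofactor of new methylation in germ cells, 15.6 and 14.7 TPM. Zfp57 itself was near the limit with 0.99 and 0.70 TPM, and the oocyte factor Dppa3 and the testis factor Ctcfl had 0 counts in both. Of 23 compared between the libraries none was 2-fold apart, beside 7.61% of all genes, with 4 ratios above 0 and 19 below and a median of -0.19.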

How the data were processed

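Levels and counts come from gene and transcript tables deposited for each of the 2 libraries. Per the deposited readme files, they rest on reads aligned to transcripts of mm10 and annotation M4. No source used here gives the aligner, the quantifier or the strand setting of the counting. Per the file headers the tables hold the authors' expected count (an estimate of read pairs, fractional where reads were split), TPM and FPKM with posterior means and bounds of TPM, and for transcripts the percent of the gene's TPM. The deposited junction and contig tables in mm9 were not used here.

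Of 43346 gene identifiers, 42462 matched GENCODE M21, with version suffixes removed. Detection meant at least 1 TPM in each library. Expected counts were rounded and scaled with TMM (edgeR 4.0.16, R 4.3.3) over all genes. Genes with a summed count of 20 or more were compared as log2 of scaled counts plus a prior count of 0.5, with exact 95% Clopper-Pearson intervals (scipy 1.17.1), and called at 2-fold. The calculation was tested on simulated data. With 1 library on each side edgeR gives no test, so no p-value was computed. Spike-ins, which took 0.654% and 0.485% of the expected counts, were left out of library sizes and of the total for the share of TPM. Levels are the deposited TPM values, which were not recomputed without spike-ins. Sequences and microRNA positions are from RefSeq (GRCm38.p6). Alternatives were total counts, DESeq2 1.42.0 size factors, spike-in scaling, the TPM ratio, other limits for counts, folds and levels, posterior means, FPKM, expected counts and each library alone. The members and the lists were chosen with earlier results of these data known. All members could be named. Of the other lists, values were given for Igf2, Igf2r, Gnas, the 5 highest and any gene called apart, and in text on hosts and partners for genes chosen after their values were seen (Blcap, Herc3, Kcnq1, Mcts1, Snrpb and the imprint factors).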

Additional observations from a re-analysis of the deposited data

How the results depend on the processing

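The median ratio of the members reversed under 1 alternative: it was 0.05 with TMM and -0.38 with spike-in scaling, which moves the whole table alike. The share of the members was 0.586% by TPM and 0.751% by expected counts, which weight long transcripts more. The number of members apart between the libraries was 3 at 2-fold and 6 at 1.5-fold. It was 3 with total counts, DESeq2 size factors, a minimum of 100 counts or a prior count of 2, and 4 with spike-in scaling, a minimum of 1 count or the TPM ratio. These 4 were not the same genes. With spike-in scaling Nap1l5 fell below 2-fold, at 0.74, and H19 at -1.01 and Kcnq1ot1 at -1.03 passed it. The TPM ratio added Zdbf2, at 1.95, and a minimum of 1 count added Usp29, which rests on 0 and 1 counts. With either library left out, 29 to 30 members reached 1 TPM, against 28 in both, and the share was 0.543% to 0.629%. The ratios of all 33 members kept their value within the interval under total counts and DESeq2 size factors, 28 moved beyond it under spike-in scaling and 13 under the TPM ratio. No paired analysis was possible because there is 1 group. Counting depth limits Zim1, Mcts2, H19 and Ascl2, whose ratios rest on few counts. Usp29 and Snurf, below a summed count of 20, were not among the 33 compared.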
